A study of Caenorhabditis elegans with 2 samples.

Results

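The nuclear hormone receptor genes of Caenorhabditis elegans were examined in a chromatin immunoprecipitation experiment that mapped EOR-1, a zinc finger transcription factor, in L3 larvae. The genes were chosen by name: protein-coding genes called nhr- followed by a number in the Ensembl annotation of WBcel235, without the moulting regulators nhr-23 and nhr-25. This gave 267 of 19973 protein-coding genes on the nuclear chromosomes, 167 of them on chromosome V and 100 on the others. All material came from strain OP81, in which every animal carried the unc-119(ed3) mutation on chromosome III and wgIs81, an eGFP-tagged eor-1 transgene. There was 1 group of whole larvae of both sexes with 2 biological replicates and no second condition. Which promoter drives the transgene is not stated by the labels, and signal from whole animals cannot be assigned to a tissue.

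Nuclear hormone receptors are transcription factors with a zinc finger DNA-binding domain and a ligand-binding domain, and many respond to small lipophilic molecules. Nematodes hold an unusually large family, most of it derived from an ancestor related to the vertebrate receptor HNF4 and much of it in clusters of neighbouring genes. A smaller set is conserved with insects and vertebrates, and members with known roles act in fat metabolism, dietary responses, toxin responses and developmental timing.

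Each gene was scored by the candidate regions with a summit in its promoter window, which reached 1000 bp upstream and 200 bp downstream from each annotated transcript start. Candidate regions are peaks together with background, 30000 in each of the pooled list and the lists of replicates 1 and 2. The optimal list, the authors' selection of reproducible peaks, held 285 regions, of which 256 were nuclear. Signal is the authors' value for each region, of unstated scale, and rank 1 is the highest signal of a list. Read depth is not known, so no error can be attached to a single signal. Positions are in build ce11, counted from 1. Intervals are exact 95% Clopper-Pearson intervals and cover counting error only. Genes are not replicates and neighbouring receptors can share a region, so shares and medians are set beside those of all protein-coding genes without a test.

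Some of the stronger receptor regions are shown first because their sequence can be read against that of a strong EOR-1 peak. The lines below give the summit base with 50 bases on each side, from the plus strand of the RefSeq genome of WBcel235. They show the highest region of 5 receptor genes among the 7 of highest pooled signal, all outside exons, followed by the optimal peak at the promoter of hsp-1, a constitutive Hsp70 gene. Capitals mark GAGAG or its reverse complement CTCTC, overlapping matches included, and the 5 receptor windows hold none. GAGAG lay near the summit of 34.97% of optimal peaks in promoter windows and 8.96% of all promoter candidates. Its absence from 5 windows can therefore not be read as particular to receptors. The longer EOR-1 motif sought below is in neither the hsp-1 window nor the 5 receptor windows. The windows of nhr-49 and nhr-101, the other 2 of the 7, are not shown.

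nhr-35, chrX:4531767-4531867: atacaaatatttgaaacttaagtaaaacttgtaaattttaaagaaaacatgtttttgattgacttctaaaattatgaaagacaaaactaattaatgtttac
nhr-34, chrIV:9667913-9668013: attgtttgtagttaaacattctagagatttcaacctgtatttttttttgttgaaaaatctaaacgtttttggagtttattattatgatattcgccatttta
nhr-1, chrX:17517423-17517523: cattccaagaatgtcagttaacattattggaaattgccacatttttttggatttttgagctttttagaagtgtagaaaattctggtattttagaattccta
nhr-31, chrIV:8029776-8029876: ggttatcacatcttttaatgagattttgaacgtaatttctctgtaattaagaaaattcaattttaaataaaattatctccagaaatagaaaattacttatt
nhr-10, chrIII:7115768-7115868: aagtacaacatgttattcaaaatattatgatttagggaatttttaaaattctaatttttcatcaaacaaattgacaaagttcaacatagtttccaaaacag
hsp-1, chrIV:17278499-17278599: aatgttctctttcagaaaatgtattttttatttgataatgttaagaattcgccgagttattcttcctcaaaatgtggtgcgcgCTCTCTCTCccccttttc

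No nuclear hormone receptor gene had a peak of the optimal list in its promoter window, but many had a weak candidate region there. The optimal count was 0 of 267 (where a limit of 3 counts allows a share of up to 1.12%, and the exact interval one of up to 1.37%), against 0.981% of all protein-coding genes, so a share near the background was not detectable with this number of genes. In the pooled list, 120 of 267 receptor genes had a candidate (44.9%, 38.9–51.1), against 32.1% of all genes. In replicate 1 the count was 125 (46.8%, 40.7–52.996), against 34.2%, and in replicate 2 it was 115 (43.1%, 37.1–49.2), against 34.3%. Both replicates had a candidate in the window of 86 genes (32.2%, 26.6–38.2), against 23.2% of all genes, and 77 genes had one in the pooled list and both replicates (28.8%, 23.5–34.7), against 21.0%. No list had a candidate for 110 receptor genes (41.2%, 35.2–47.4), against 53.6% of all genes. Each of the 3 candidate lists gave the receptor genes the larger share.

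The gap to all genes, in percentage points, was narrower among strong regions, where both shares are lower by construction. Whether the gap changed relative to the shares was not tested. When each list was limited to its 10000 regions of highest signal, 16.5% of receptor genes had a pooled candidate, against 14.4% of all genes. For candidates in both replicates the shares were then 8.99% and 7.01%. Both shares also depended on the window: with 500 bp upstream and 100 bp downstream, 19.1% of receptor genes had a candidate in both replicates, against 12.5% of all genes, and with 2000 bp and 500 bp the shares were 48.7% and 36.4%.

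The signals at receptor promoters were low, with a median near that of all genes with a candidate but none of the highest values. Among the 120 genes with a pooled candidate, the highest signal per gene ran from 13.2 to 39.3, with a median of 20.6 (quartiles 16.7 and 24.98). Over all 6412 genes with a candidate the median was 21.6 (quartiles 17.1 and 28.1) and the highest value 384. The strongest receptor gene stayed below the weakest nuclear peak of the optimal list, which had a signal of 52.7. The 3 optimal peaks nearest to receptor genes had the same signal and rank (43, 267 and 272) in the optimal and pooled lists. Staying below 52.7 therefore largely restates the absence of an optimal peak. Of the genes with a candidate, 467 (7.28%) had a signal above that of every receptor gene. Counted once each, the receptor windows held 179 pooled regions, with a median rank of 15352 against 14190 for all 8068 promoter regions. Of these, 1 was among the first 1000 pooled regions (0.559%, 0.0141–3.07), against 5.01% of all promoter regions, and 23 were among the first 5000 (12.8%, 8.32–18.7), against 19.5%. Their highest −log10 q value was 0.507, while the lowest of a nuclear optimal peak was 1.43. By q value, no receptor region can therefore be told from background, those of the genes named below included.

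**Figure D1:**
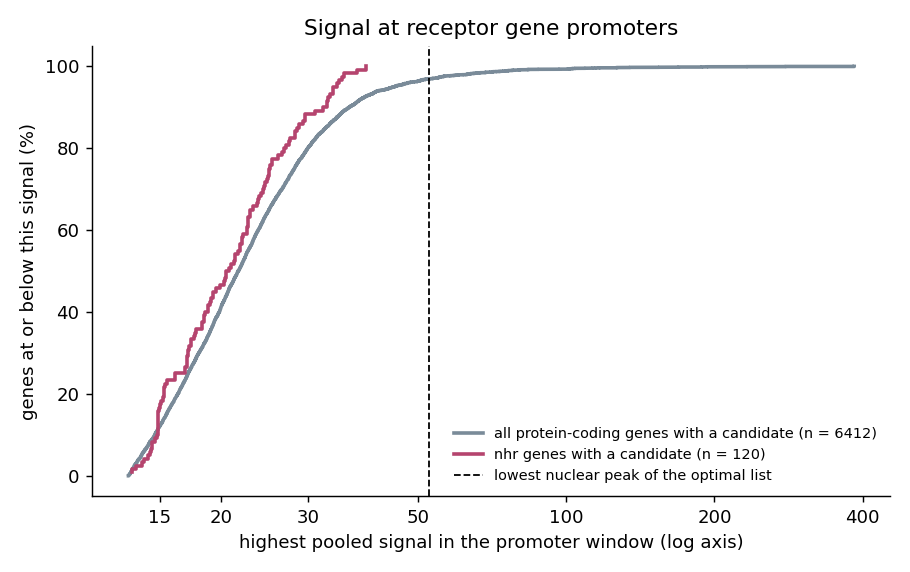
Share of genes (vertical axis, %) whose highest pooled signal in the promoter window is at or below the value on the horizontal axis (log scale), for 120 receptor genes and all 6412 protein-coding genes with a candidate. The receptor curve ends at 39.3, to the left of the dashed line at 52.7, the weakest nuclear peak of the optimal list.

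The 20 receptor genes with the highest pooled signal had values from 28.2 to 39.3. The last of them, nhr-201, shares its region and so its signal with nhr-202, which is not counted among the 20, and nhr-42 and nhr-107 share a region too, so the 20 genes rest on 19 regions. At nhr-35 the region chrX:4531669-4531964, in intergenic sequence 874 bp upstream of a start, had a signal of 39.3 in the pooled list, 16.4 in replicate 1 and 21.7 in replicate 2. It ranked 924 in the pooled list and was the only receptor region within the first 1000, with ranks of 5611 and 1089 in replicates 1 and 2. At nhr-49, which controls fat use and the fasting response, the region chrI:9872284-9872579 had a pooled signal of 37.6, with 21.6 in replicate 1 and 17.0 in replicate 2. It lay in an intron of nhr-49, 390 bp upstream of the gene's innermost start.

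More than 1 start was annotated for 15 of the 20 genes, against 65 of the 120 receptor genes with a pooled candidate (54.2%). Taking the highest region over several windows favours such genes by construction. The gene nhr-34, with 5 starts, held 7 pooled regions, the most of any receptor gene. Its strongest region, chrIV:9667815-9668110 in an intron, had a pooled signal of 35.1 and 20.6 and 18.8 in replicates 1 and 2. The ranks of this region, 2042 and 2138, were the closest to each other among the 20. The gene nhr-1 had 34.6 at chrX:17517325-17517620 (14.2 and 20.6 in replicates 1 and 2) and a further intergenic region of 29.3, 105 bp upstream of a start. At both nhr-34 and nhr-1, some pooled regions overlap another by part of their length, so a count of regions need not be a count of separate sites.

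Genes with known metabolic or tissue roles were also among the 20. At nhr-31, which is needed for growth of the excretory cell, the intergenic region chrIV:8029678-8029973 had 34.4, with 23.2 and 18.0 in replicates 1 and 2. At nhr-10 and nhr-68, which together switch on the propionate shunt, the pooled signals were 33.7 and 33.2. For nhr-10 (chrIII:7115670-7115965, 380 bp upstream) the replicates were close, with 15.003 and 15.7. For nhr-68 (chrV:11574418-11574713, in its own intron) they were 23.2 and 11.1. The HNF4-related gene nhr-64 had 32.9 at chrI:3101352-3101647, with 20.3 and 13.3 in replicates 1 and 2.

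The other genes of the 20 had pooled signals of 28.2 to 35.4. They were nhr-101 (35.4), nhr-221 (33.6), nhr-87 (32.8), nhr-195 (32.7), nhr-56 (32.1), nhr-21 (30.9), nhr-42 and nhr-107 (29.6 each), nhr-179 (29.3), nhr-88 (28.7), nhr-130 (28.5) and nhr-201 (28.2). The summit at nhr-101 lay in a UTR of its neighbour pms-2, a mismatch repair gene, and in the windows of both genes. Of the 19 distinct summits, 11 were intergenic, 6 in introns and 2 in UTRs.

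**Figure D2:**
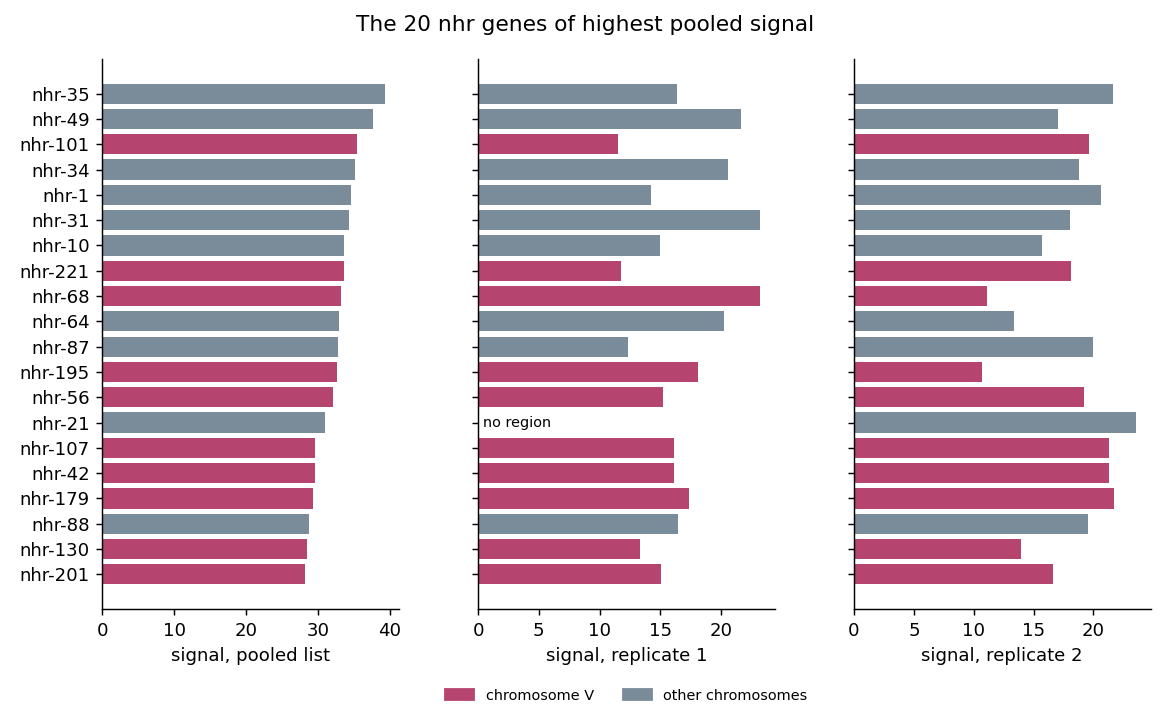
Signal (horizontal axes, scale not stated and not known to be comparable between lists) of the strongest pooled region of each of the 20 receptor genes with the highest pooled signal, in the pooled list and in the overlapping region of each replicate; 10 genes are on chromosome V. Bars in the pooled list fall evenly from 39.3 to 28.2, whereas those of the replicates keep no such order, and nhr-21 has no region in replicate 1.

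The replicates placed receptor regions differently. Among the 20 genes, replicate 1 had an overlapping region at 19 and replicate 2 at 20, and nhr-21 had a signal of 23.6 at rank 738 in replicate 2 and none in replicate 1. The widest gaps in rank between replicates 1 and 2 were at nhr-101 (15946 and 1740), nhr-221 (15334 and 2536), nhr-68 (1063 and 13583), nhr-87 (13734 and 1584) and nhr-195 (3755 and 14729). These gaps went in both directions, with replicate 2 the higher-ranked at nhr-101, nhr-221 and nhr-87.

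When each replicate was ranked by its own list, 6 of the 20 first receptor genes were shared, named here after their values were seen: nhr-1, nhr-19, nhr-31, nhr-34, nhr-42 and nhr-49. Of the 20 first in the pooled list, 9 were among those of replicate 1 and 14 among those of replicate 2. Such overlaps were not counted for other genes, so they cannot be read as particular to receptors. A further region of nhr-49, chrI:9868900-9869195, had the highest receptor signal of replicate 2, 29.5 at rank 276. Its overlapping region in replicate 1 had rank 25488, and its pooled signal was 34.4. That summit lay in a UTR of K10C3.5, upstream of nhr-49. If the first 285 regions of replicate 2 stood in for the optimal list, nhr-49 would be the single receptor gene with a peak, and with the first 285 of replicate 1 there would be none.

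Over all 179 receptor regions, 96 overlapped a region of both replicates (53.6%, 46.04–61.1), against 50.9% of all promoter regions. Replicate 1 alone had 41, replicate 2 alone 36, and 6 overlapped neither. Across the 96 regions found in both, the replicates' signals had a Spearman rho of 0.08, and across the 4106 such regions at all promoters it was 0.25. Both are descriptions over regions of the same libraries, some of which overlap, and carry no p value. The pooled signals of receptor regions end at 39.3 and those of all promoter regions at 384, so both rho values cover unlike ranges. No interval was computed, and a difference between the rho values was not tested.

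**Figure D3:**
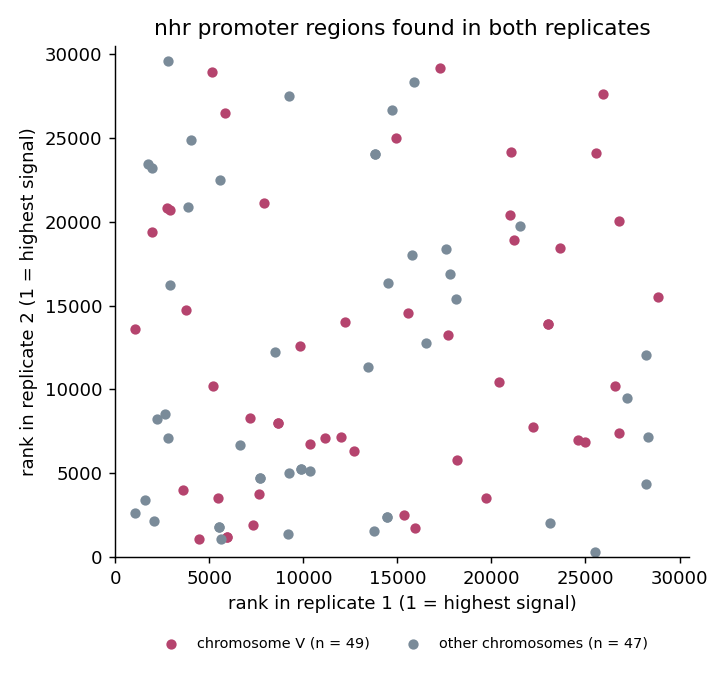
Rank in replicate 1 (horizontal axis) and replicate 2 (vertical axis) of the overlapping regions for the 96 receptor promoter regions found in both replicates, 49 on chromosome V and 47 elsewhere; rank 1 is the highest signal. Points are spread over the whole square, and regions near the top in one replicate lie at any rank in the other.

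On chromosome V, 76 of 167 receptor genes had a pooled candidate (45.5%, 37.8–53.4), against 29.9% of all genes there. On the other chromosomes the count was 44 of 100 (44.0%, 34.1–54.3), against 32.9% of all genes. The intervals of the receptor genes on both sides overlap almost wholly. Candidates in both replicates were found at 51 genes of chromosome V (30.5%, 23.7–38.1), against 19.2%, and at 35 elsewhere (35%, 25.7–45.2), against 24.5%.

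Where chromosome V receptors had a candidate, its median signal was lower than elsewhere, except among the 10000 regions of highest signal, where it was 27.5 against 27.3. The median of the highest pooled signal was 19.4 on chromosome V (quartiles 15.4 and 24.8) and 22.4 elsewhere (quartiles 17.1 and 25.5). The ranges between these quartiles overlap widely, and the difference between the medians was not tested. All protein-coding genes showed the same order, with medians of 20.03 on chromosome V and 22.2 elsewhere. Replicates 1 and 2 gave medians of 11.9 and 11.0 on chromosome V and of 15.003 and 12.7 elsewhere. The strongest receptor gene of chromosome V was nhr-101 (35.4). Of the 100 receptor regions on chromosome V, 9 were among the first 5000 pooled regions (9%, 4.198–16.4), and of the 79 elsewhere 14 were (17.7%, 10.04–27.9).

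By single chromosome, the share of receptor genes with a pooled candidate was 59.1% on the X (13 of 22), 57.6% on IV (19 of 33), 33.3% on II (5 of 15), 25% on III (2 of 8) and 22.7% on I (5 of 22). Over all genes the shares were 39.0%, 35.9%, 23.3%, 35.04% and 33.1% in the same order. On chromosomes I and III the receptor share was therefore below that of all genes, with wide intervals (7.82–45.4 and 3.19–65.1).

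**Figure D4:**
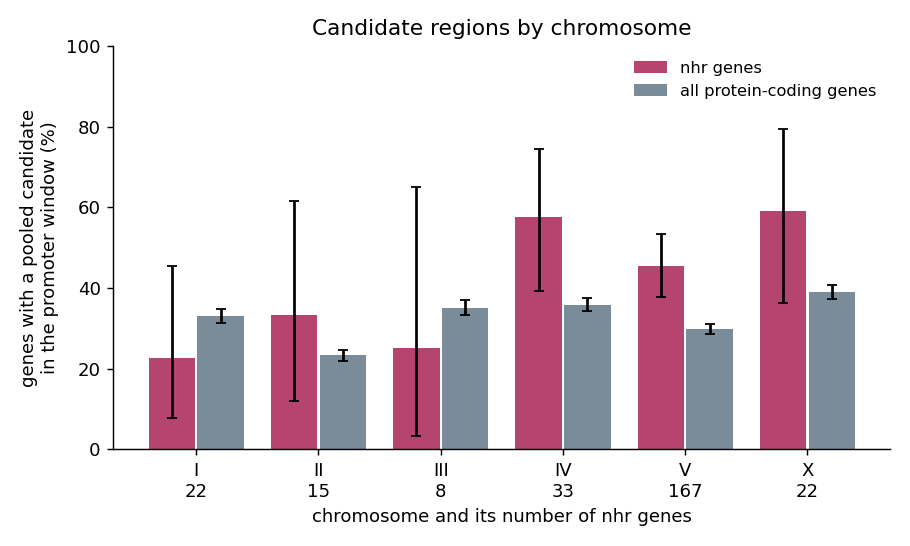
Share of genes with a pooled candidate summit in the promoter window (vertical axis, %) by chromosome, for receptor genes and all protein-coding genes; error bars are exact 95% intervals and the number under each chromosome is its count of receptor genes. Receptor bars are the higher ones on II, IV, V and X and the lower ones on I and III.

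Along chromosome V, the middle held the highest share both for receptor genes and for all genes. When the chromosome was cut into 3 parts of equal length, in the middle part 26 of 41 receptor genes had a pooled candidate (63.4%, 46.9–77.9), against 38.8% of all genes. In the left part the count was 32 of 78 (41.03%, 30.01–52.7), against 26.3%, and in the right part 18 of 48 (37.5%, 23.95–52.6), against 23.4%. Receptor genes of chromosome V mostly lie in groups: 128 of 167 (76.6%) had the start of another member within 20000 bp, against 44 of 100 elsewhere. Of the 128 grouped genes, 64 had a candidate (50%, 41.04–58.96), and of the 39 others on chromosome V 12 had one (30.8%, 17.02–47.6). On the other chromosomes the order was the opposite, with 18 of 44 grouped genes (40.9%, 26.3–56.8) and 26 of 56 others (46.4%, 32.99–60.3).

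Of the 179 receptor regions, 3 lay in the windows of a pair of members. They were at nhr-42 and nhr-107 (29.6), nhr-201 and nhr-202 (28.2), and nhr-94 and nhr-152 (14.9). A gene outside the family also had its window over 13 of the 179 regions. In all, 8.94% of receptor regions lay in the windows of more than 1 gene, against 10.1% of all promoter regions. A receptor was the gene with the closest start at 174.

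The number of annotated starts moved with the shares, and each start adds window. Several starts were annotated for 37.5% of receptor genes and 27.4% of all genes. Among genes with 1 start, 55 of 167 receptor genes had a pooled candidate (32.9%, 25.9–40.6), against 28.0% of all genes. Among genes with several starts the count was 65 of 100 (65.0%, 54.8–74.3), against 42.9%. With 1 start, the shares on chromosome V and elsewhere were 33.3% (35 of 105) and 32.3% (20 of 62), against 27.0% and 28.4% of all such genes. When every gene was given 1 window of equal length, at its most upstream start, 42.3% of receptor genes had a pooled candidate, against 30.03% of all genes, and 28.5% had one in both replicates, against 20.6%.

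**Figure D5:**
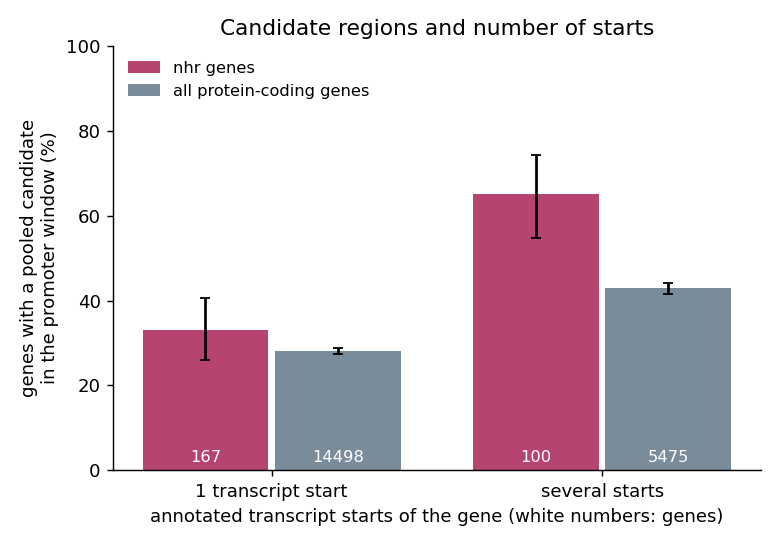
Share of genes with a pooled candidate summit in the promoter window (vertical axis, %) for genes with 1 or several annotated transcript starts; error bars are exact 95% intervals and white numbers count genes. For 1 start the receptor interval, 25.9 to 40.6, holds the 28.0% of all genes, and for several starts it begins at 54.8, above the 42.9% of all genes.

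Summits at receptor genes had a median position 409.5 bp upstream of the start, against 405.5 bp over all gene and region pairs. Of the 179 regions, 104 had an intergenic summit (58.1%, against 60.6% of all promoter regions), 48 an intronic one (26.8%, against 27.1%), 20 one in a UTR (11.2%, against 8.37%) and 7 one in a coding exon (3.91%, against 3.97%). The summit was inside the same receptor gene at 56 regions. This count leaves out the region shared by nhr-201 and nhr-202, whose summit lay in an intron of nhr-202. No such count was made for all promoter regions, so it cannot be read as particular to receptors.

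The sequence words sought were less frequent at receptor regions than at optimal promoter peaks. This was not particular to receptors, because their intervals held the shares of all promoter candidates. The EOR-1 motif, recalled as GAGACGCAG or AGACGCAGA and sought on either strand, lay within 50 bp of 1 of 179 receptor summits (0.559%, 0.0141–3.07), against 0.719% of all promoter candidates and 13.99% of optimal promoter peaks. The 1 match, named for it, was at nhr-228, a region of low signal (13.8, rank 27707) whose summit lay in a UTR of the gene, 67 bp downstream of a start. It is shown with capitals for the reverse complement of AGACGCAGA.

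nhr-228, chrV:2281776-2281797: gcgcgTCTGCGTCTtaaggcaa

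The shorter word GAGAG, on either strand, was near 10 receptor summits (5.59%, 2.71–10.03), against 8.96% of all promoter candidates and 34.97% of optimal promoter peaks. It was at none of the 19 regions of the 20 genes named by signal. Median GC content within 50 bp of the summit was 25.7% at receptor regions, 26.7% at all promoter candidates and 41.6% at optimal promoter peaks. Among the 19 regions it ran from 18.8% at nhr-35 and nhr-49 to 38.6% at nhr-56, and the hsp-1 window shown above had 36.6%.

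A list of 11 receptors of fat and energy metabolism, out of 267 receptor genes, held 4 of the 20 genes named by signal. Of 11 such genes, 6 had a pooled candidate, and the same number had one in both replicates. The shares over all genes were 32.1% and 23.2%, and over all receptor genes 44.9% and 32.2%. With 11 genes the error of such a count is wide, and the list was chosen with earlier results known. Beside nhr-49, nhr-10, nhr-68 and nhr-64, the genes with a pooled candidate were nhr-66, a partner of NHR-49 in lipid metabolism (26.0), and the HNF4-related nhr-69 (20.5). The median over the 6 was 33.1, against 20.6 over the 120 receptor genes with a candidate. Several starts favour a high value by construction: nhr-49, nhr-66 and nhr-64 have 6, 7 and 4. The gene nhr-68 has 2, and nhr-10 and nhr-69 have 1 each. No pooled candidate was found at nhr-80, which activates fatty acid desaturase genes, at nhr-13, at nhr-62, which acts in the response to dietary restriction, at nhr-79 or at nhr-114, which acts in the methionine cycle response. Of these 5, nhr-79 alone had a region in a replicate (11.6 in replicate 2).

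Of 7 conserved receptors, 2 had a pooled candidate, a count near the 32.1% of all genes. They were nhr-85, a Rev-erb relative that acts in developmental timing (24.3), and nhr-41, a relative of the insect receptor DHR78 (21.8). For nhr-85 the highest window signals were 9.61 in replicate 1 and 19.0 in replicate 2. The gene nhr-91, related to the receptor GCNF, had a region in replicate 1 alone (17.5), and nhr-48 in replicate 2 alone (14.7). At nhr-6, the NR4A relative, nhr-67, the tailless relative, and nhr-8, which acts in sterol balance and drug resistance, none of the 3 lists had a region.

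Of 5 receptors of toxin and hypoxia responses, 1 had a pooled candidate, which at this size cannot be told from the 32.1% of all genes. It was nhr-86, a sensor of a bacterial metabolite, with a signal of 18.3 and window signals of 9.63 and 11.0 in replicates 1 and 2. The gene nhr-45 had regions in both replicates (11.0 and 11.5) but not in the pooled list. At nhr-57, a hypoxia-induced gene, and nhr-176, which acts in the breakdown of a drug, no list had a region.

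Receptors outside the numbered set and partners of the family had no optimal peak in their windows. Over all genes the share was 0.981%, too low to be seen in lists this small. A pooled candidate was found at 3 of 7 such receptors, 2 of 6 genes for ligand synthesis and coregulators and 1 of 5 target genes. At these sizes the counts cannot be told from the 32.1% of all genes. The moulting regulator nhr-23 had 34.8 (23.3 and 18.9 in replicates 1 and 2), and nhr-25 had no region in any list. The dafachronic acid receptor gene daf-12 had 20.4 in the pooled list and 21.4 in replicate 2, with none in replicate 1. The neuronal receptor gene fax-1 had 13.1, and odr-7, sex-1 and unc-55 had no region. Of 6 genes for ligand synthesis and coregulators, daf-36, which acts at the start of dafachronic acid synthesis, had 32.7, and daf-9, a later enzyme, had 17.4. The coregulator genes din-1, mdt-15, cbp-1 and dpy-22 had no pooled region. Of 5 metabolic target genes of these receptors, the desaturase gene fat-6 had 21.98, and acs-2, fat-5, fat-7 and fmo-2 had no pooled region. The hsp-1 peak had 266 and the hsp-110 peak 279.

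The receptor genes closest to an optimal peak are named here after their values were seen. Within 5000 bp of a start there was an optimal summit for 3 of 267 receptor genes (1.12%, 0.232–3.25), against 2.70% of all genes. Within 20000 bp there was one for 12 (4.49%, 2.34–7.72), against 8.38%. The median distance was 246175 bp, against 166595 bp over all genes. For receptor genes it was 293510 bp on chromosome V and 189346 bp elsewhere, and all genes were not split in this way. Optimal peaks lay in the windows of 0.601% of all genes on chromosome V and 1.11% elsewhere. Neighbouring receptors can also share the nearest peak, so the longer distance cannot be read as particular to receptors. The nearest, chrIII:7114045-7114340, lay in an intron of nhr-10, 1245 bp inside the gene, with a signal of 54.1 (24.0 and 27.3 in replicates 1 and 2), close to the lowest signal of the optimal list. The next, chrIV:7047720-7048015, was intergenic, 2288 bp upstream of nhr-105, with 53.8 (36.2 and 28.4). The last, chrII:2974013-2974103, was intergenic, 2558 bp upstream of nhr-88. It had a signal of 187 (103 and 81.6), GAGAG near its summit and a GC content of 60.4%. None of these 3 peaks lay in the promoter window of a protein-coding gene, and none held the recalled EOR-1 motif.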

How the data were processed

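Candidate lists were made for replicate 1, for replicate 2 and for both pooled, each against a control, and the optimal list derives from all of them, per the deposited README. Each deposited region has a signal and, as −log10, a q value, both from the authors' processing. Neither the signal's scale, the aligner, the peak caller nor the read depth is known here, so no precision can be given. Lists in ce11 were used with Ensembl release 115 and the RefSeq genome, both of WBcel235, and no list region ended past the reference chromosomes. Lists in ce10 were not used. A region counted for every protein-coding gene whose window held its summit, and all transcript starts counted. For named regions, the replicate value is that of the strongest region overlapping the pooled one by 1 bp or more. For genes of the lists by role, it is the highest signal in the window of each replicate.

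The members and gene lists were chosen with earlier results of these data known. The genes named are the 20 of highest pooled signal, those among the first 1000 pooled regions, all genes of the lists, the 5 of the 20 with the widest gap in rank, and members sharing a region. Named after their values were seen were nhr-19 (first 20 in both replicates), nhr-228 (motif) and nhr-105 (near an optimal peak). No test was run, because there is 1 group and genes are not replicates. Alternatives were 2 other windows, the most upstream start, overlap in place of the summit, the closest gene alone, the 10000 strongest regions and each replicate left out. Assignment was tested on simulated data. The tools were SciPy 1.17.1, pandas 2.3.3, numpy 2.4.6 and matplotlib 3.10.9 under Python 3.11.15.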

Additional observations from a re-analysis of the deposited data

How the results depend on the processing

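The count of receptor genes with an optimal peak was 0 under every window and assignment tried, and 0 to 1 when the top of a single replicate stood in for the optimal list. The share with a pooled candidate was 44.9%. It was 31.1% with 500 bp upstream and 100 bp downstream (30.5% on chromosome V, 32.0% elsewhere, 19.1% for both replicates). With 2000 bp and 500 bp it was 55.4% (56.3% on chromosome V, 48.7% for both replicates). In the 10000 regions of highest signal it was 16.5% (14.4% on chromosome V, 20% elsewhere, 8.99% for both replicates), and the median signal was 27.5 (27.5 on chromosome V and 27.3 elsewhere, so that the order of the medians turned). Fewer regions or shorter windows lower a share by construction. With 1 replicate left out, shares were 43.1% to 46.8% for all members, 41.9% to 47.9% on chromosome V and 45% elsewhere. Median signals, on the replicates' own scales, were 11.6 to 12.5 for all members, 11.0 to 11.9 on chromosome V and 12.7 to 15.003 elsewhere. In 30 of 30 alternative shares the receptor value was above that of all genes, either unsplit or split into chromosome V and the others. These shares recount the same genes from the same candidate lists, so they are not separate results. By single chromosome, the receptor share with a pooled candidate was below that of all genes on I (22.7% against 33.1%) and III (25% against 35.04%). No paired analysis was possible because there is 1 group and no test. Read depth is unknown, so signals near the bottom of the lists cannot be told from background. By q value this holds for every receptor region, the strongest included. Their highest −log10 q was 0.507, against 1.43 for the lowest of a nuclear optimal peak.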
